A study of Equus caballus with 32 samples.

Results

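The heme breakdown and iron handling genes described here are 10 genes, HMOX1, BLVRA, BLVRB, FTL, FTH1, TFRC, CD163, SLC40A1, ALAS2 and BACH1, chosen by gene name from a table of 21357 equine genes. All 10 were found in the table, 1 row each, and all 10 passed the filter on low values (mean log2 value not under 3). RNA was sequenced from tracheal wash (TW) derived cells of 16 male Thoroughbred racehorses of the same yard and trainer. Each horse was sampled at rest (T0, about 2 months without training) and again in training (T1, about 2.5 months into the training programme), which gave 32 libraries. The labels name no drug and no genetic change in either group. The horses were stabled at T1 and mostly at pasture at T0, so training cannot be told apart from housing or time. At T1, cytology of the same washes put horses 4, 9, 10, 11 and 16 in the group unaffected by exercise-induced pulmonary haemorrhage (EIPH) and the other 11 horses in the affected group. That reading rests on haemosiderophages, macrophages that hold iron pigment from digested red cells. Horses 2, 3 and 10 formed the High N group, with a high neutrophil percentage at T1. The EIPH and High N groups come from the study's account of each horse and not from the sample labels.

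Red cells that leak into the airways are eaten by macrophages, which break the heme down and store or release its iron. HMOX1 opens the heme ring and frees biliverdin, carbon monoxide and iron, and the biliverdin reductase BLVRA turns this biliverdin into bilirubin. BLVRB acts on other forms of biliverdin and on flavins. FTL and FTH1, the light and heavy chains of ferritin, store the iron. TFRC imports iron bound to transferrin, CD163 takes up haemoglobin bound to haptoglobin on macrophages, and SLC40A1 (ferroportin) exports iron. ALAS2 starts heme synthesis in red cell precursors, and BACH1 is a heme-sensing repressor of HMOX1 and other genes. These roles are known mainly from human and mouse.

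The values are on a log2 scale and were taken here as adjusted for library size. They are not divided by gene length, so levels are compared between libraries and not between genes. A difference of 1 on this scale is a doubling, and the lowest genes hardly vary on it (AHSP ran from -0.96 to -0.62 over all libraries), so changes of genes with low expression may be understated. Read depth per library is unknown from these values. A TW mixes cell types. The mean of 16 macrophage markers lay between 12.95 and 14.59 across the T0 libraries and between 13.38 and 14.45 across the T1 libraries. For 17 ciliated epithelium markers the mean spanned 8.17 to 12.06 in T0 libraries and 8.10 to 11.91 in T1 libraries. For 9 neutrophil markers it spanned 8.13 to 9.40 and 8.52 to 10.94. Of 17 erythroid markers 12 were in the table, and AHSP, SLC4A1, HBZ and CA1 were below 0 in every library, while HBA ranged from 5.59 to 10.24. In such bulk samples, fewer cells of a type and less RNA per cell cannot be told apart.

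In TW derived cells of 16 horses, training was followed by upregulation of 3 of the 10 genes and downregulation of none in limma (horse as block, Benjamini-Hochberg adjusted p under 0.05). They were HMOX1 and BLVRB, listed here under heme breakdown, and the ferritin light chain FTL. Over all 14643 genes tested, 3.89% were upregulated and 2.47% downregulated, 569 and 361 genes, which became 436 and 83 when all libraries were shifted to the same median. At an unadjusted p under 0.05 there were 7 of the 10 genes, against 28.5% of all genes. The median log2 fold change of the 10 genes was 0.11, against -0.02 over all genes, and 5 of the 10 were positive. The 10 genes were chosen with earlier results of these data known, so these shares do not test them as a set.

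**Figure D1:**
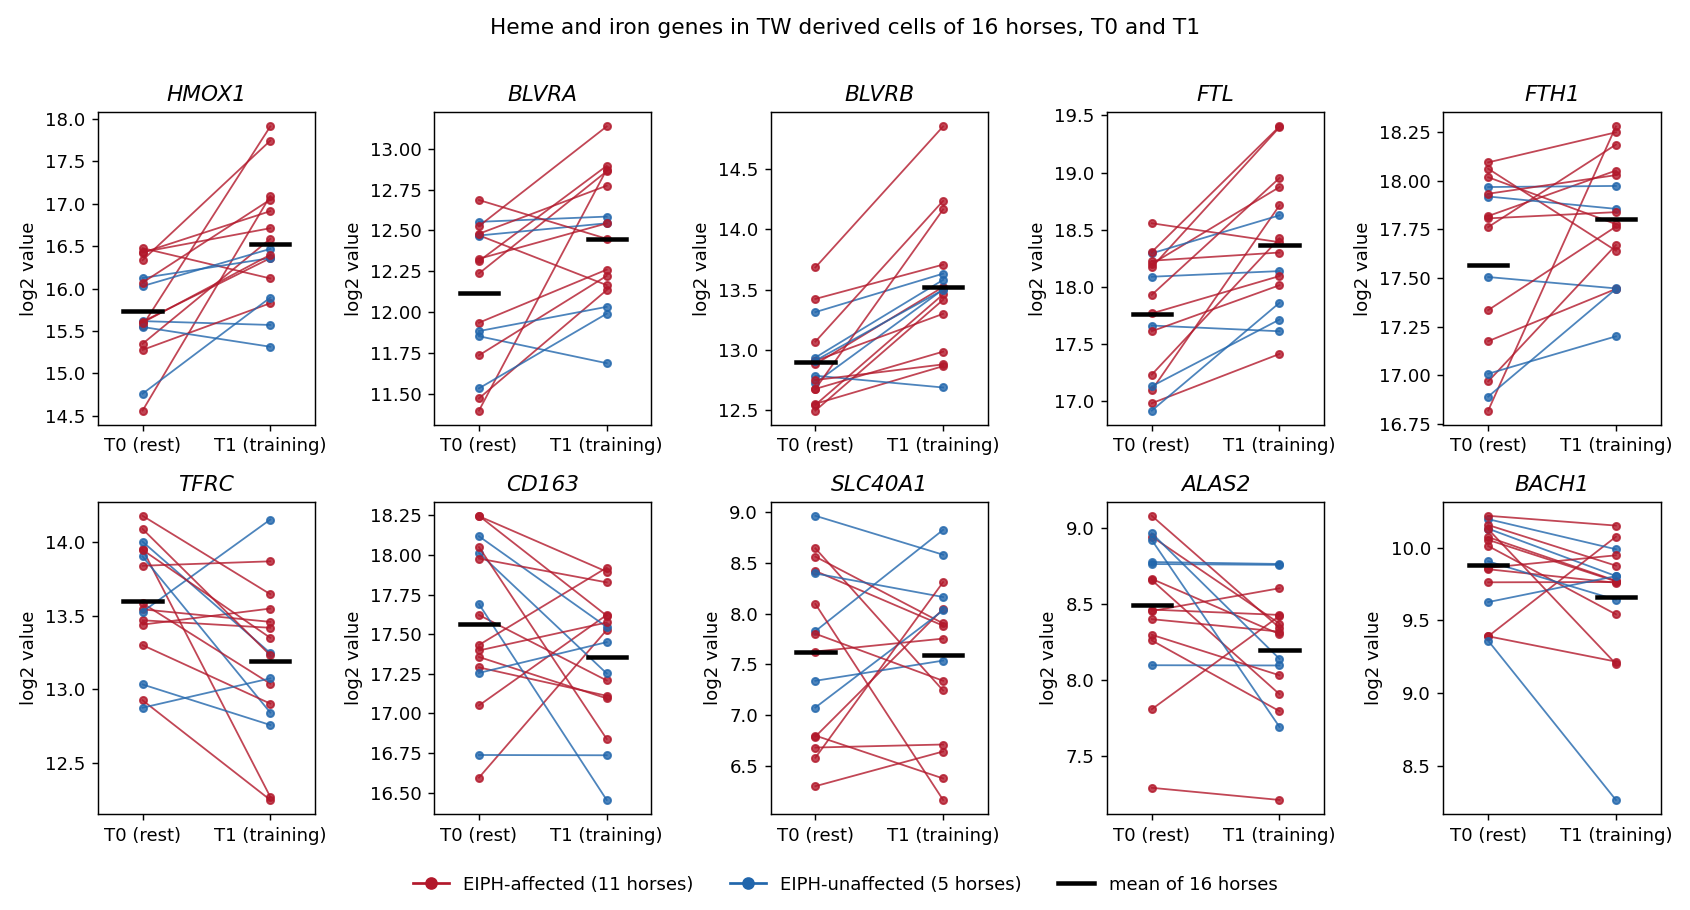
Log2 values of the 10 heme and iron genes (y axes, a separate range for each gene) at T0 and T1, with 1 line per horse, red for the 11 EIPH-affected and blue for the 5 unaffected horses, and a black bar for the mean of 16 horses. HMOX1 was higher at T1 in 13 horses, BLVRB in 15 and FTL in 14. TFRC was lower in 12 and ALAS2 in 14, in some of these by very little.

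HMOX1 (ENSECAG00000001129), the heme-degrading enzyme, had log2 values between 14.56 and 16.48 at T0 with a median of 15.61. At T1 its values lay between 15.31 and 17.91 with a median of 16.43. The time points overlapped, but 7 of the T1 libraries were above every T0 library. The mean rose from 15.74 ± 0.58 to 16.52 ± 0.72 (SD, n = 16), by 0.78 on the log2 scale (SE 0.20, limma adjusted p = 0.0352), and 13 of 16 horses were higher at T1. Horses 3 and 1 had the largest differences, 2.53 and 2.35, and horses 2, 4 and 9 were lower at T1 than at T0, by differences of -0.36, -0.05 and -0.23. HMOX1 kept its call in 7 of the 16 fits with 1 horse left out and lost it without horse 1, 3, 4, 6, 8, 11, 14, 15 or 16, with an adjusted p of up to 0.0704 and a log2 fold change of at least 0.67.

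BLVRB (ENSECAG00000000697) encodes the biliverdin reductase that also reduces flavins. Its log2 values spanned 12.50 to 13.68 in T0 libraries (median 12.83) and 12.69 to 14.85 in T1 libraries (median 13.50). Horses 1, 15 and 14 had the highest T1 values, 14.85, 14.23 and 14.16, and 4 of the T1 libraries were above every T0 library. The mean rose from 12.90 ± 0.33 to 13.52 ± 0.56 (SD, n = 16), by 0.62 on the log2 scale (SE 0.11, limma adjusted p = 0.0101), and only horse 9 was lower at T1. BLVRB was the only one of the 10 genes that passed in all 16 fits with 1 horse left out, with an adjusted p between 0.00626 and 0.0288.

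BLVRA (ENSECAG00000011650), the other biliverdin reductase, had log2 values between 11.40 and 12.69 at T0 (median 12.27) and between 11.69 and 13.14 at T1 (median 12.50). Most horses were slightly higher at T1, 13 of 16, and the time points overlapped widely. The log2 fold change was 0.33 (SE 0.11) and did not pass (limma adjusted p = 0.0613). It passed without horse 13 (adjusted p = 0.0436).

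For FTL (ENSECAG00000029371), the ferritin light chain, the log2 values spanned 16.92 to 18.56 in T0 libraries (median 17.85) and 17.41 to 19.40 in T1 libraries (median 18.35). The T1 libraries of horses 15 and 1 had the highest values, both 19.40 after rounding, and 6 of the T1 libraries were above every T0 library. The mean rose from 17.76 ± 0.54 to 18.37 ± 0.60 (SD, n = 16), by 0.61 on the log2 scale (SE 0.15, limma adjusted p = 0.0352), with 14 of 16 horses higher. FTL kept its call in 6 of the 16 fits with 1 horse left out. It lost it without horse 7 and without each of the 9 horses listed for HMOX1, with an adjusted p of up to 0.0732.

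FTH1 (ENSECAG00000008683), the ferritin heavy chain, had log2 values between 16.82 and 18.09 at T0 (median 17.78), and its T1 range was 17.20 to 18.28 (median 17.81). Its lowest T0 library and its highest T1 library both came from horse 3, and 12 of 16 horses were higher at T1. The log2 fold change was 0.24 (SE 0.13, limma adjusted p = 0.257). The table also holds ferritin rows with no gene name, which are not counted among the 10 genes. The row described as ferritin heavy polypeptide 1-like (ENSECAG00000003925) averaged 18.48 ± 0.55 in T0 and 18.90 ± 0.34 in T1 libraries, 0.42 higher on the log2 scale (SE 0.15, limma adjusted p = 0.0895). Whether this row shares reads with FTH1 was not tested, and the FTH1 value is uncertain to that extent. A further heavy chain row (ENSECAG00000001669) was at 3.995 at T0 and 3.988 at T1, and an unnamed light chain row (ENSECAG00000003192) was at 2.73 and 2.55 and under the minimum for testing.

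Among the genes for uptake, TFRC (ENSECAG00000024267), the transferrin receptor, had log2 values between 12.87 and 14.18 at T0 (median 13.56), and its T1 range was 12.25 to 14.15 (median 13.24). It was lower at T1 in 12 of 16 horses, and the T1 values of horses 1 and 2, 12.25 and 12.27, were below all others. The log2 fold change of -0.41 (SE 0.13) did not pass (limma adjusted p = 0.0618), and it passed without horse 9 (adjusted p = 0.0399). CD163 (ENSECAG00000019111), the haemoglobin scavenger receptor of macrophages, ran between 16.60 and 18.25 at T0 (median 17.53), and its T1 range was 16.45 to 17.92 (median 17.49). The ranges were nearly the same. Its log2 fold change was -0.21 (SE 0.16, limma adjusted p = 0.412), and 11 of 16 horses were lower at T1.

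SLC40A1 (ENSECAG00000021609), the iron exporter ferroportin, had log2 values between 6.30 and 8.96 at T0 (median 7.71), and its T1 range was 6.17 to 8.82 (median 7.82). It had the widest spread of differences, from -1.93 in horse 5 to 1.73 in horse 14. As many horses were higher as lower at T1, 8 each, and the log2 fold change was -0.02 (SE 0.22, 95% CI -0.49 to 0.44, limma adjusted p = 0.958).

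ALAS2 (ENSECAG00000000068), the erythroid enzyme of heme synthesis, ran between 7.29 and 9.08 at T0 (median 8.56), and its T1 range was 7.21 to 8.77 (median 8.31). Only horses 13 and 5 were higher at T1. Horses 4, 9 and 11 were nearly unchanged (differences of -0.0055, -0.0128 and -0.0016), and the largest fall was -1.23 in horse 10. Its log2 fold change of -0.29 (SE 0.12) did not pass (limma adjusted p = 0.115). The erythroid markers HBA and HEMGN had log2 fold changes of 0.29 and -0.27 and did not pass either (adjusted p = 0.567 and 0.138). BACH1 (ENSECAG00000000307), the heme-sensing repressor, ran between 9.36 and 10.22 at T0 (median 9.96), and its T1 range was 8.27 to 10.15 (median 9.77). The T1 library of horse 16, at 8.27, stood below all other libraries, whose lowest value was 9.20. Its log2 fold change was -0.22 (SE 0.10, limma adjusted p = 0.168), and 12 of 16 horses were lower at T1.

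Marker covariates and other settings changed some calls. With the mean of macrophage markers as a covariate, 5 of the 10 genes passed in limma: HMOX1 (0.70), BLVRB (0.62) and FTL (0.56) stayed upregulated, BLVRA passed at 0.28 (adjusted p = 0.0247) and TFRC at -0.44 (adjusted p = 0.0313). The mean of ciliated epithelium markers as a covariate, a setting chosen after the data were seen, gave the same 5 genes, with TFRC at -0.46 (adjusted p = 0.0138). With marker means of neutrophils, T cells and ciliated cells together as covariates no gene of the table passed, and 1207 genes had an unadjusted p under 0.05. In that fit HMOX1 was at 0.55 (adjusted p = 0.585), BLVRB at 0.50 (adjusted p = 0.446) and FTL at 0.40 (adjusted p = 0.598). Without the 3 High N horses only BLVRB of the 10 genes passed (0.65, adjusted p = 0.0469). Without horses 1, 14, 15 and 16, a set that earlier work on these data chose with values in view, no gene of the table passed and 2065 had an unadjusted p under 0.05, with HMOX1 at 0.56 and BLVRB at 0.46. With no replicate block, that is without the pairing by horse, HMOX1, BLVRB and FTL had adjusted p-values of 0.0647, 0.0576 and 0.0883. HMOX1 and FTL missed the threshold with no filter on low values (adjusted p = 0.0510 and 0.0869), and FTL after shifting libraries to the same median (adjusted p = 0.0527).

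**Figure D2:**
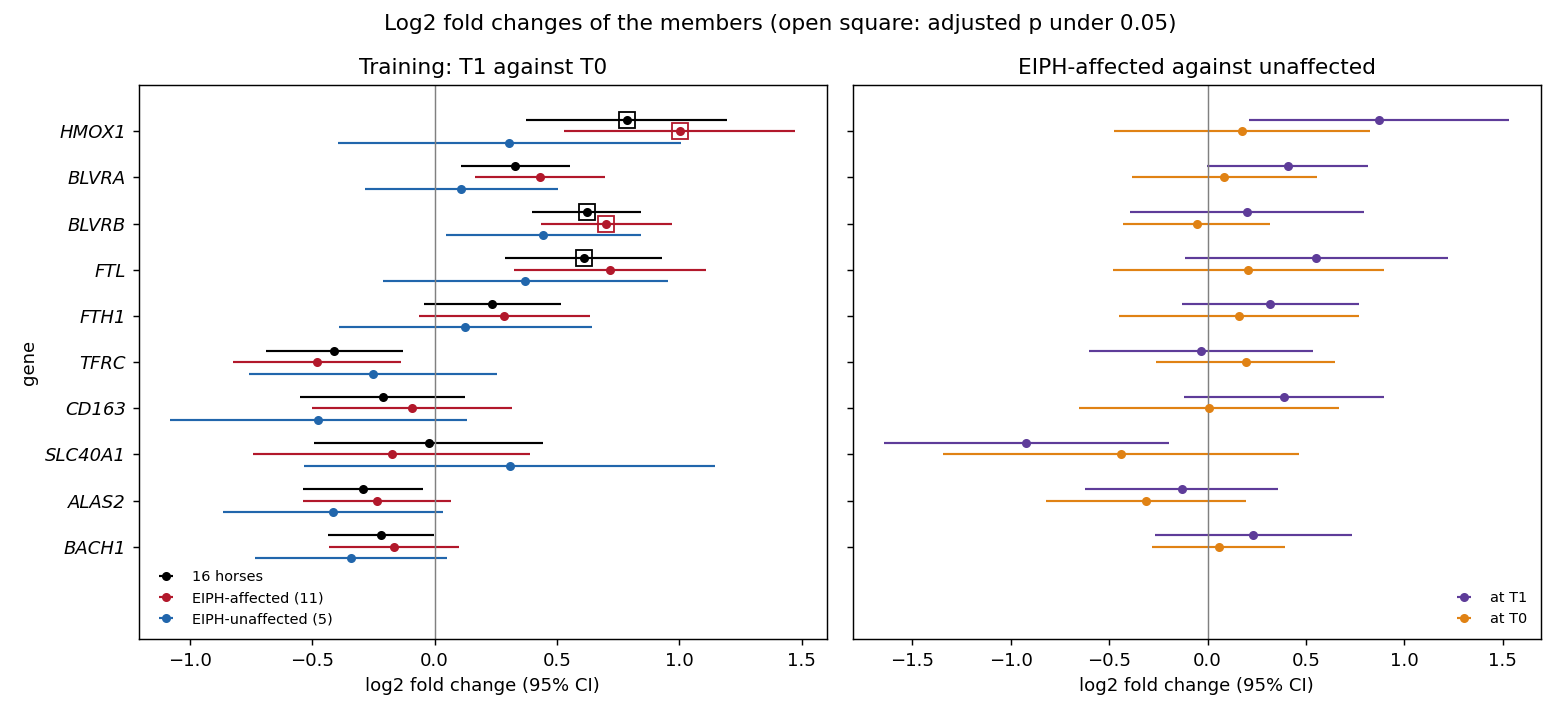
Log2 fold changes (x axes) of the 10 genes with 95% confidence intervals from limma, on the left for T1 against T0 in all 16 horses (black), the 11 EIPH-affected (red) and the 5 unaffected horses (blue), and on the right for affected against unaffected horses at T1 (purple) and T0 (orange). Open squares mark an adjusted p under 0.05, which HMOX1, BLVRB and FTL reached over 16 horses and HMOX1 and BLVRB in the affected horses, while no gene reached it on the right.

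Other genes of heme and iron handling were taken from pathway lists, and those named are the genes of each list with the smallest p for training. List counts stand against 3.89% of all genes upregulated, 2.47% downregulated and 28.5% with an unadjusted p under 0.05. The lists were also chosen with earlier results of these data known, so these shares do not test them as sets. Of 4 heme breakdown genes tested, 2 were upregulated at T1 (HMOX1 and BLVRB), and HMOX2, the constitutive heme oxygenase, was at 0.30 (limma adjusted p = 0.0506). The median log2 fold change over this list was 0.48, and none of its genes was downregulated. In heme synthesis, UROD (uroporphyrinogen decarboxylase) was upregulated by 0.37 (SE 0.09, adjusted p = 0.0302), and UROS, which acts just before it, was at 0.30 (adjusted p = 0.0616).

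Iron storage had 1 upregulated gene of 5 tested, FTL, and NCOA4, the receptor that sends ferritin to lysosomes, was at -0.14 (limma adjusted p = 0.422). None of 15 iron and heme uptake genes passed, and 1 had an unadjusted p under 0.05. In that list the smallest p belonged to TFRC, followed by SLC46A1, which carries folate and heme, at 0.35 (adjusted p = 0.202), and LCN2, which binds bacterial iron carriers, at 0.53 (adjusted p = 0.389). None of 4 iron and heme export genes passed, at an adjusted or an unadjusted p under 0.05, with CP (ceruloplasmin, a ferroxidase) at 0.33, FLVCR1 (a heme exporter) at -0.04 and ABCG2 at -0.06. None of 6 mitochondrial iron genes passed, 1 of them at an unadjusted p under 0.05, namely GLRX5 of iron-sulphur cluster assembly at 0.31 (adjusted p = 0.0508).

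The enzymes that NRF2 activates and BACH1 represses had 2 of 9 genes upregulated, SRXN1 (sulfiredoxin) by 0.57 (SE 0.10, limma adjusted p = 0.0101) and OSGIN1 by 0.60 (SE 0.15, adjusted p = 0.0340). NQO1 was at 0.27 (adjusted p = 0.0842), and 8 of the 9 genes were positive, with a median of 0.17. None of 11 iron and heme regulators passed, and 4 had an unadjusted p under 0.05, near the share over all genes (28.5%). NFE2L2, which encodes NRF2, was at -0.36 (adjusted p = 0.0646), its partner MAFF at 0.32 (adjusted p = 0.0855) and its inhibitor KEAP1 at 0.34 (adjusted p = 0.145). Among marker lists, 1 of 9 neutrophil genes was upregulated (RETN, 0.69), 5 had an unadjusted p under 0.05 and 8 were positive, with a median of 0.63 over the list, the highest of the marker lists. The part of neutrophils in the values of single genes was not tested apart from the covariate fit above. Of 11 T cell genes 1 was upregulated (CCL5, 0.54), and it alone had an unadjusted p under 0.05. No macrophage, ciliated epithelium or erythroid marker passed, with 4 of 17, 1 of 17 and 1 of 5 rows tested at an unadjusted p under 0.05. These counts were not set against other lists.

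The differences of several genes moved together across horses. Over 16 horses, the T1 minus T0 difference of HMOX1 was correlated with that of FTL (Pearson's r = 0.87, Spearman's rho = 0.86, permutation p = 1e-05 for r, the smallest that 100000 resamples give, adjusted p = 9e-05 over 9 relations). It was also correlated with that of BLVRA (r = 0.81, rho = 0.78, permutation p = 0.0001, adjusted p = 0.00045), FTH1 (r = 0.70, rho = 0.66, permutation p = 0.00285, adjusted p = 0.00855) and BLVRB (r = 0.59, rho = 0.59, permutation p = 0.0151, adjusted p = 0.0339). Rank correlations of these 4 pairs had adjusted p-values from 0.00054 to 0.0434. How many of all genes pass this test was not counted. When 10841 genes were ordered by likeness to HMOX1, as described below, FTL ranked 257, BLVRA 600, FTH1 1379 and BLVRB 1977. Many other genes thus followed HMOX1 more closely, so these relations are not shown to be particular to heme and iron genes. Without horses 1 and 3, which lay farthest from the median HMOX1 difference, r was 0.82 for FTL, 0.73 for BLVRA, 0.61 for FTH1 and 0.52 for BLVRB, and only FTL and BLVRA then passed (adjusted p = 0.00477 and 0.0168). Without the 3 High N horses only FTL passed (r = 0.78, adjusted p = 0.00963).

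The other 5 genes did not pass. SLC40A1 had r = -0.46 with HMOX1 (rho = -0.50, permutation p = 0.0719, adjusted p = 0.129), CD163 had r = 0.43 (adjusted p = 0.139), ALAS2 r = -0.31 (adjusted p = 0.308), TFRC r = 0.14 (adjusted p = 0.675) and BACH1 r = -0.08 (adjusted p = 0.763). The labels give no sequencing batch, so no value within batches could be had. Cell composition is shared by both sides of each pair, and its part in these relations was not tested.

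**Figure D3:**
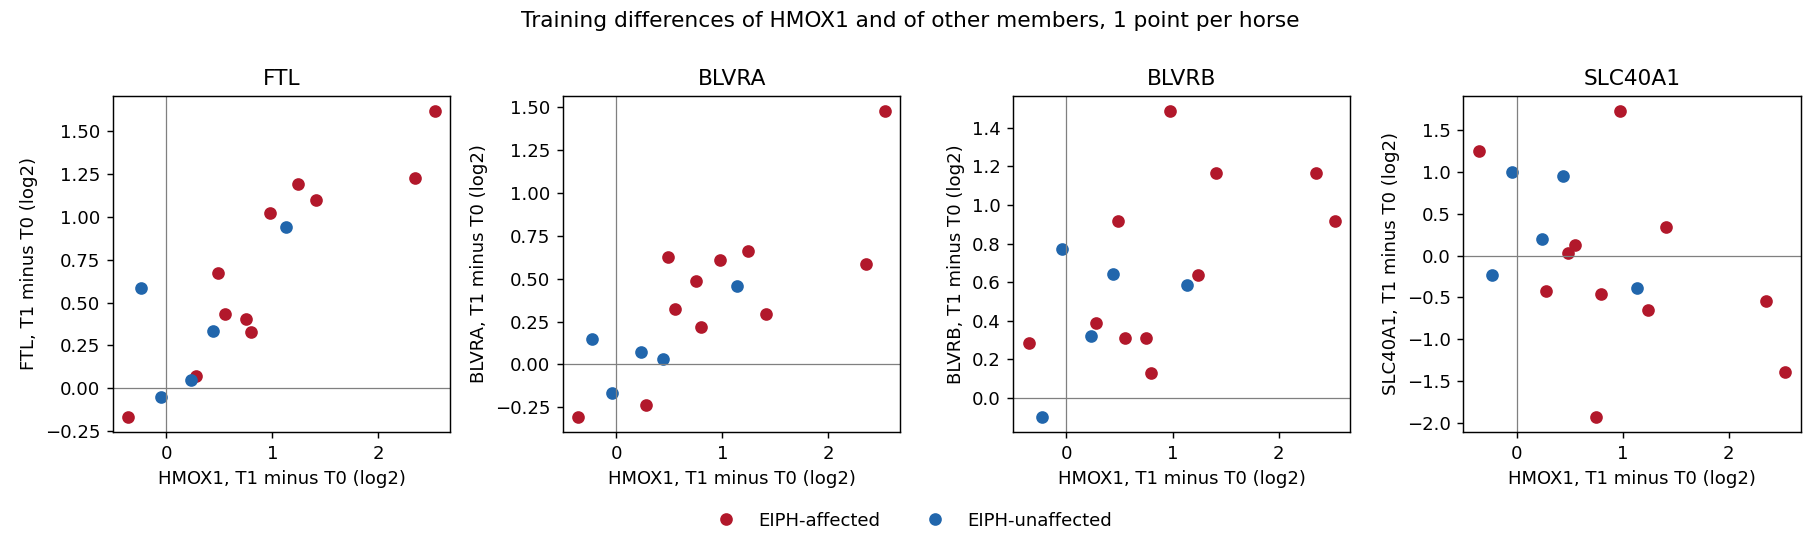
T1 minus T0 differences of FTL, BLVRA, BLVRB and SLC40A1 (y axes, log2) against that of HMOX1 (x axes, log2), 1 point per horse, red for EIPH-affected and blue for unaffected horses. Horses 3 and 1 lie at the right of each panel, with HMOX1 differences of 2.53 and 2.35, and the FTL points rise with HMOX1 (r = 0.87) while the SLC40A1 points scatter (r = -0.46).

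Among 10841 other genes whose mean log2 value was 7 or more, those whose T1 minus T0 differences were most like HMOX1 over 16 horses were RGS19 (r = 0.97), PPM1M (r = 0.97), SLC11A1 (r = 0.96), SHISA4 (r = 0.96) and C1QC (r = 0.96). SLC11A1 encodes a metal transporter of the phagosome membrane and C1QC a chain of complement C1q that was listed here as a macrophage marker. FTL ranked 257 in this order, BLVRA 600, FTH1 1379 and BLVRB 1977. None of the 5 genes passed the training test itself, with log2 fold changes from 0.17 for PPM1M to 0.54 for SHISA4. This order is a description over libraries that share their cell composition.

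The EIPH groups were compared at T1 to ask whether heme and iron genes differed between horses with and without haemosiderophages. None of the 10 genes and none of the 14630 genes tested passed in limma (0%). HMOX1 and SLC40A1 had an unadjusted p under 0.05, 2 of 10 genes against 18.3% of all genes (2680). That count is near the share over all genes. HMOX1 was on average higher and SLC40A1 lower in affected horses, neither past the threshold after adjustment. The median log2 fold change of the 10 genes was 0.28, against 0.02 over all genes.

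HMOX1 at T1 had log2 values of 15.57, 15.31, 16.36, 16.47 and 15.89 in the unaffected horses 4, 9, 10, 11 and 16. In the 11 affected horses its values ran from 15.83 to 17.91 with a median of 16.71. The groups overlapped, and 7 affected horses were above every unaffected horse. The difference was 0.87 (SE 0.32, unadjusted p = 0.0127, limma adjusted p = 0.176). It stayed between 0.72 and 1.01 in the fits with 1 horse left out and was 1.02 without the 3 High N horses (adjusted p = 0.0996).

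SLC40A1 at T1 had log2 values of 8.82, 8.16, 7.54, 8.03 and 8.58 in the unaffected horses, in the same order. In the affected horses it ran from 6.17 to 8.31 with a median of 7.34. The groups overlapped, and 6 affected horses were below every unaffected horse. The difference was -0.92 (SE 0.35, unadjusted p = 0.0156, limma adjusted p = 0.182), between -1.09 and -0.77 in the fits with 1 horse left out.

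The other genes showed smaller differences at T1. The heme breakdown and storage genes were all positive: BLVRA 0.41 (SE 0.19, limma adjusted p = 0.275), BLVRB 0.20 (SE 0.28, adjusted p = 0.756), FTL 0.55 (SE 0.32, adjusted p = 0.371) and FTH1 0.32 (SE 0.22, adjusted p = 0.454). Of the uptake genes, CD163 was at 0.39 (SE 0.24, adjusted p = 0.412) and TFRC at -0.03 (SE 0.27, adjusted p = 0.963). ALAS2 was at -0.13 (adjusted p = 0.810) and BACH1 at 0.23 (adjusted p = 0.647). The 95% confidence intervals reached from -0.11 to 1.22 for FTL and from -0.12 to 0.90 for CD163, so differences of these sizes were not resolved with 5 unaffected horses.

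**Figure D4:**
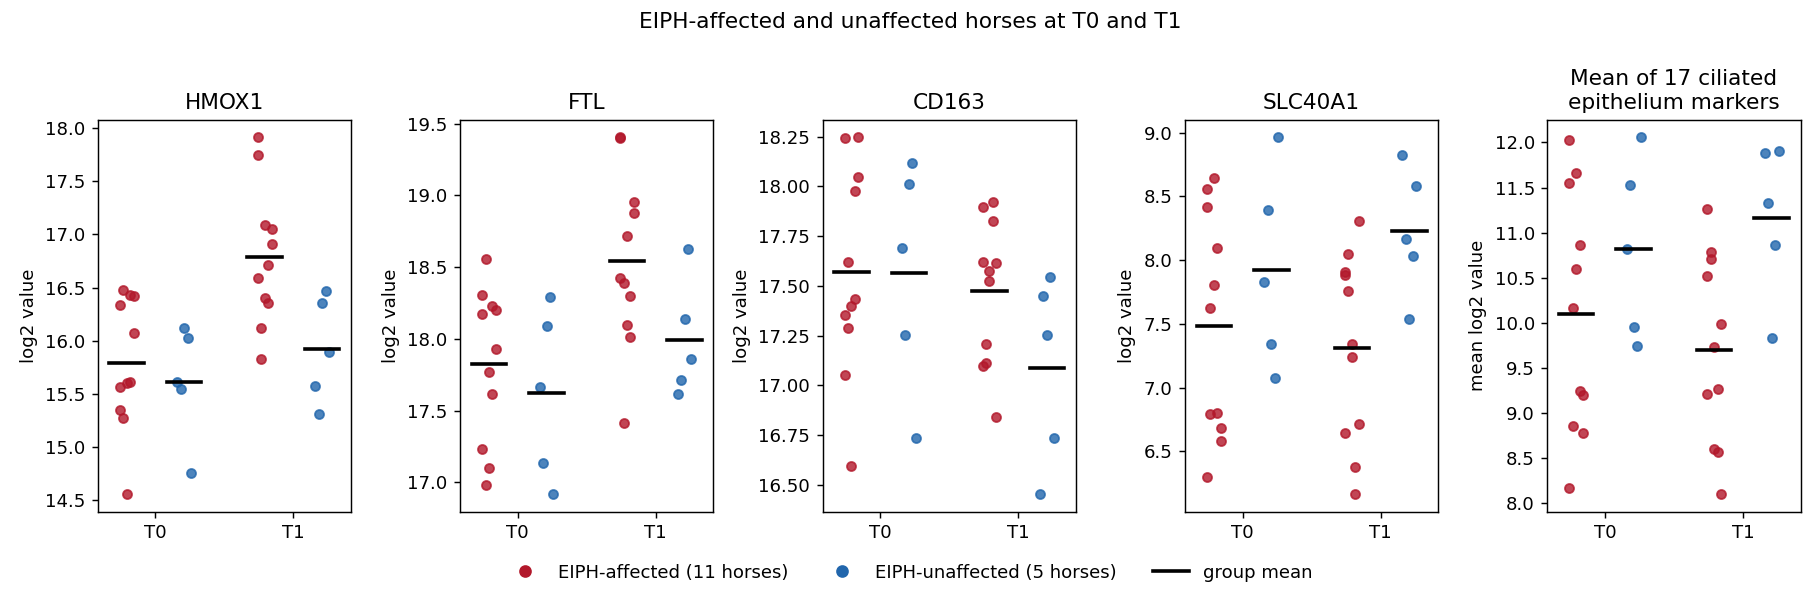
Log2 values of HMOX1, FTL, CD163 and SLC40A1 and the mean log2 value of 17 ciliated epithelium markers (y axes) at T0 and T1, 1 point per horse, red for the 11 EIPH-affected and blue for the 5 unaffected horses, with black bars for group means. At T1, HMOX1 averaged 16.79 in affected and 15.92 in unaffected horses, SLC40A1 7.31 and 8.23, and the ciliated marker mean 9.70 and 11.16.

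Ciliated and macrophage markers differed on average between the EIPH groups at T1, in the same direction as at T0. The ciliated marker mean was 9.70 ± 1.04 in affected horses (SD, n = 11, range 8.10 to 11.26) and 11.16 ± 0.86 in unaffected horses (SD, n = 5, range 9.83 to 11.91). All 17 ciliated markers were lower in affected horses. All had an unadjusted p under 0.05, against 18.3% of all genes, and none passed after adjustment in limma. The macrophage marker mean was 14.19 ± 0.23 against 13.69 ± 0.36, with ranges of 13.74 to 14.45 and 13.38 to 14.11, and 16 of 17 macrophage rows were higher in affected horses, 5 of them at an unadjusted p under 0.05. The erythroid marker mean was 6.31 ± 0.51 in affected and 6.63 ± 0.51 in unaffected horses. With the macrophage marker mean as a covariate, the HMOX1 difference was 0.12 and that of SLC40A1 -0.14, and BLVRA, BLVRB, FTL, FTH1 and CD163 lay between -0.07 and -0.02 (all adjusted p = 1). With the ciliated marker mean as a covariate, chosen after the data were seen, HMOX1 was at 0.70 and SLC40A1 at -0.12 (adjusted p = 0.998 for both).

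At T0 the same horses were grouped by their later status. None of the 10 genes and none of the 14644 genes tested passed in limma (0%). At an unadjusted p under 0.05 there was none of the 10 genes, against 1.17% of all genes (172). HMOX1 at T0 was 15.62, 15.55, 16.12, 16.03 and 14.76 in the unaffected horses, in the same order, and ran from 14.56 to 16.48 in affected horses with a median of 15.61. The unaffected horses lay within the affected range. The difference was 0.18 (SE 0.31, limma adjusted p = 0.942). Over the 10 genes the differences ran from -0.44 (SE 0.43) for SLC40A1 to 0.21 (SE 0.33) for FTL.

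The training change was then taken in each EIPH group, from 1 fit over all 32 libraries. In the 11 affected horses HMOX1 and BLVRB were upregulated, 2 of 10 genes, against 0.99% of all 14643 genes (145). At an unadjusted p under 0.05 there were 5 of the 10 genes, against 23.1%. In the 5 unaffected horses none of the 10 genes and none of all genes passed in limma (0%), and 911 genes had an unadjusted p under 0.05, among them BLVRB alone of the 10.

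HMOX1 rose in the affected horses by 1.002 (SE 0.22, limma adjusted p = 0.0446), with differences from -0.36 to 2.53 and 10 of 11 horses higher at T1. In the unaffected horses 4, 9, 10, 11 and 16 its differences were -0.05, -0.23, 0.23, 0.44 and 1.13, and the fitted change was 0.31 (SE 0.33, adjusted p = 0.802). BLVRB rose in the affected horses by 0.70 (SE 0.13, adjusted p = 0.0259), with all 11 horses higher at T1. Its differences in the unaffected horses were 0.77, -0.10, 0.32, 0.64 and 0.59, and the fitted change was 0.44 (SE 0.19, adjusted p = 0.753). FTL was at 0.72 in affected (SE 0.19, adjusted p = 0.0621) and 0.37 in unaffected horses (SE 0.28, adjusted p = 0.772). BLVRA was at 0.43 and 0.11, and TFRC at -0.48 and -0.25, none past the threshold.

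These values do not show that the groups differ. The interaction of EIPH with training passed in limma for none of the 10 genes and none of 14643 genes (0%), and at an unadjusted p under 0.05 there was none of the 10 genes, against 1.49% of all genes (218). For HMOX1 the training change was larger in affected horses by 0.70 (SE 0.40, 95% CI -0.15 to 1.54, unadjusted p = 0.101, adjusted p = 0.982). SLC40A1 had the lowest interaction of the 10 genes, -0.48 (SE 0.48, adjusted p = 0.982). The calls in the affected horses were also close to the threshold. Fitted in those horses alone, none of the 10 genes passed. HMOX1 kept its call in 3 and BLVRB in 9 of the 16 fits with 1 horse left out. BLVRB lost it without horse 1, 3, 5, 6, 7, 14 or 15, and HMOX1 lost it without any horse other than 2, 12 and 13. Without the unaffected horse 4, 9, 10, 11 or 16 the HMOX1 change stayed at 1.002, and only its spread and adjusted p moved. The adjusted p reached 0.120 for HMOX1 and 0.0757 for BLVRB. FTL and BLVRA passed in the fits without horse 2 (adjusted p = 0.0358 and 0.0390) and without horse 13 (adjusted p = 0.0383 and 0.0411).

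Levels of most of these genes followed the ciliated epithelium marker mean across horses, in 20 relations chosen after the data were seen. How many of all genes follow this mean was not counted, so the relations are not shown to be particular to the 10 genes. SLC40A1 rose with the marker mean at T0 (r = 0.98, rho = 0.99, permutation p = 1e-05, adjusted p = 0.0002, n = 16) and at T1 (r = 0.87, rho = 0.86, permutation p = 3e-05, adjusted p = 0.0003). Without the 2 horses farthest from the median of the marker mean, r was 0.98 at T0 (without horses 15 and 16) and 0.83 at T1 (without horses 5 and 6). It was the only one of the 10 genes with a positive relation that passed at both time points. ALAS2 was positive at T0 (r = 0.68, rho = 0.75, permutation p = 0.00242, adjusted p = 0.00498) and at T1 had r = 0.22 (adjusted p = 0.453).

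Genes of uptake and breakdown ran the other way. CD163 fell with the ciliated marker mean at T0 (r = -0.84, rho = -0.84, permutation p = 0.00011, adjusted p = 0.00055) and at T1 (r = -0.72, rho = -0.74, permutation p = 0.00186, adjusted p = 0.00465), and so did TFRC (r = -0.80 and -0.63, adjusted p = 0.00084 and 0.0128) and FTH1 (r = -0.72 and -0.65, adjusted p = 0.00498 and 0.0111). BLVRA had r = -0.75 at T0 and -0.57 at T1 (adjusted p = 0.0034 and 0.0313), though its rank correlation at T1 did not pass (rho = -0.50, adjusted p = 0.0677). For HMOX1, r was -0.84 at T0 (rho = -0.84, adjusted p = 0.000467) and -0.47 at T1 (rho = -0.52, adjusted p = 0.0863). FTL and BACH1 passed at T0 (r = -0.70 and -0.75, adjusted p = 0.00691 and 0.0029) and had r = -0.38 and -0.39 at T1 (adjusted p = 0.17 and 0.168). BLVRB had no relation that passed, with r = -0.02 at T0 and 0.10 at T1 (adjusted p = 0.953 and 0.763). Without the 2 farthest horses, r at T0 was -0.80 for HMOX1, -0.78 for CD163, -0.78 for TFRC, -0.71 for FTH1 and -0.71 for BLVRA, and at T1 -0.68 for CD163, -0.64 for TFRC, -0.68 for FTH1 and -0.65 for BLVRA. Whether the relations differ between T0 and T1 was not tested.

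**Figure D5:**
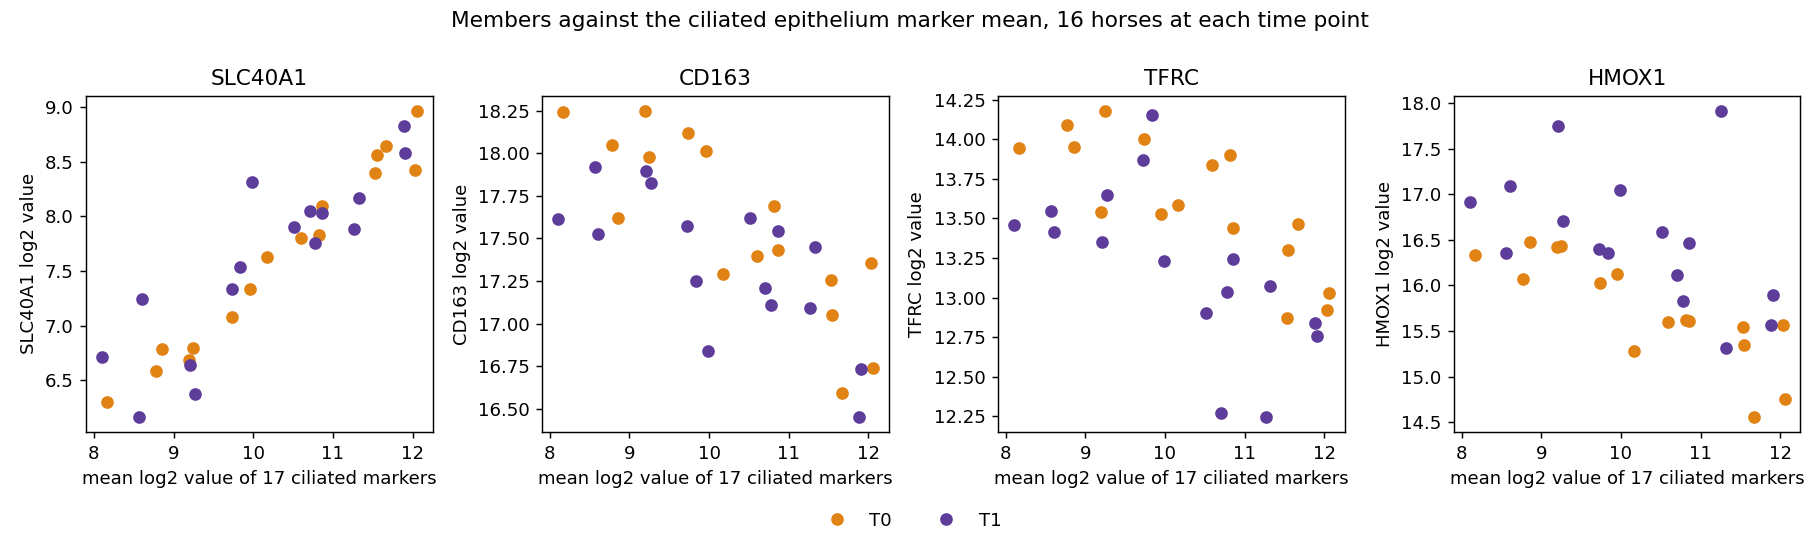
Log2 values of SLC40A1, CD163, TFRC and HMOX1 (y axes) against the mean log2 value of 17 ciliated epithelium markers (x axes), 1 point per horse at T0 (orange) and at T1 (purple). SLC40A1 rises with the marker mean at both time points (r = 0.98 at T0 and 0.87 at T1) and CD163 and TFRC fall, while the HMOX1 points at T1 spread widely (r = -0.47).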

How the data were processed

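Reads were trimmed (cutadapt), quality checked (FastQC, MultiQC) and assigned to EquCab3.0 transcripts by the authors with kallisto 0.46.0.1. Despite a title that promises raw counts, the deposited table holds fractional values that go below 0. They are log2 values from a transformation not given in the sources used here, and were taken as adjusted for library size. No counts were available here, so the depth and precision of single values are unknown, and no count test was run.

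Log2 values were compared with limma 3.58.1 in R 4.3.3 (empirical Bayes with a mean-variance trend) in genes whose mean log2 value reached 3, with Benjamini-Hochberg adjustment over all of these genes and a threshold of 0.05. Of 21357 genes, 1899 were at 0 in every library. Training was tested in 32 libraries with the horse as block, since labels name the horse at both time points. Same-horse deviations from the group means had correlations from -0.51 to 0.79 (median 0.35), above 0.1 in 12 of 16 horses. In 6 of 16 horses the T0 library was most like the T1 library of the same horse. EIPH was tested within T1 (11 against 5 horses), within T0, and as an interaction with training. The fits were tested on simulated data. Values were drawn for each gene on its own with the spread within horses, without horse effects or shared cell composition. The simulation therefore does not test the fits under such structure. Correlations used permutation tests with 100000 resamples.

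The named genes are the 10 members, up to 3 genes per pathway list with the smallest training p, and the 5 genes most like HMOX1. In the heme synthesis list 1 gene is not reported here, so no count is given for that list. Members and lists were chosen with earlier results of these data known. Alternatives covered filters, scaling, limma settings, marker covariates, subsets of horses and the block. No reference sequences were used, and the planned sequence features were not analysed here. Each horse gave 1 sample per time point, so p-values measure the spread between horses. Figures used matplotlib 3.10.9.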

Additional observations from a re-analysis of the deposited data

Results flagged for a closer look

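In groups of 5 unaffected horses, a value was singled out where its gap to the nearest other horse exceeded 0.71 of the group's range, and 3 of 30 groups of values met this, where chance gives about 5% of groups. BLVRB at T1 in horse 9 was 12.69, against a median of 13.50 in the unaffected horses, with a gap of 0.858 of the range. ALAS2 at T0 in horse 11 was 8.10, against a median of 8.78, with a gap of 0.767 of the range. BACH1 at T1 in horse 16 was 8.27, against a median of 9.80, with a gap of 0.799 of the range. No gene moved in opposite directions in all horses of the 2 EIPH groups.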

How the results depend on the processing

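For training, 3 of the 10 genes and 930 genes in all passed. These counts were 1 and 454 with no filter on low values, 1 and 25 without the 3 High N horses, 0 and 0 with neutrophil, T cell and ciliated markers as covariates and also without horses 1, 14, 15 and 16, 5 and 1995 with the macrophage covariate, and 5 and 2781 with the ciliated covariate. Shifting libraries to one median left 519 genes. Without pairing by horse, that is with no replicate block, 0 of the 10 genes and 15 genes passed. Leaving out 1 horse gave 1 to 4 of the 10 genes and 77 genes (without horse 6) to 1847 (without horse 9). In affected horses 2 and 145 passed, with 234 genes after shifting to one median, 0 and 0 when fitted alone, and 0 to 4 and 5 to 601 on leaving out 1 horse. For EIPH at T1, 2 genes passed with no filter, neither among the 10. Of the 9 relations of HMOX1, 4 passed, 2 without the farthest horses and 1 without the High N horses.

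Signs changed in 11 of 35 member results, none of them past the threshold. The training value of SLC40A1 became 0.0047 after shifting to one median, 0.081 with the macrophage and 0.083 with the ciliated covariate, and -0.14 to 0.10 on leaving out 1 horse. For EIPH at T1, TFRC became 0.27 without High N horses, 0.082 after shifting, and -0.15 to 0.20 on leaving out 1 horse, and BACH1 -0.076 to 0.35. With the macrophage covariate BLVRA was -0.021, BLVRB -0.026, FTL -0.037, FTH1 -0.043, CD163 -0.072 and ALAS2 0.047. At T0, HMOX1 was -0.15 and SLC40A1 0.045 with the marker covariates, and HMOX1 -0.039 to 0.30 on leaving out 1 horse. The causes were not tested. Depth could not be read from the values.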

Other observations

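In the pathway lists, several other iron genes had larger differences between EIPH-affected and unaffected horses at T1 than any of the 10 genes. They were chosen after their values were seen, and none passed in limma. Ceruloplasmin (CP), a ferroxidase, was lower in affected horses, with a log2 fold change of -2.09 (SE 0.56, unadjusted p = 0.0014, adjusted p = 0.171). LCN2, which binds bacterial iron carriers, was at -1.44 (SE 0.61), the metal importer SLC39A8 at -1.17 (SE 0.39) and lactoferrin (LTF) at -1.07 (SE 0.59). Transferrin (TF) was at -0.99 (SE 0.36) and the hypoxia regulator EPAS1 at -0.96 (SE 0.33). TF had a mean log2 value of 3.17 at T1, just above the minimum of 3 for testing. The phagosomal metal transporter SLC11A1 was at 0.96 (SE 0.34, unadjusted p = 0.011, adjusted p = 0.173). Among erythroid markers, the alpha globin genes HBA and HBA2 were at -0.77 (SE 0.62) and -1.09 (SE 0.66). At T1 the ciliated marker mean was also lower in affected horses (9.70 against 11.16), and its part in these differences was not tested.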
